A study of Mus musculus with 12 samples.

Results

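Chloroquine was compared on top of ADI-PEG20 in 6 tumor RNA libraries, 3 from tumors given ADI-PEG20 plus chloroquine (ADI-PEG20+CQ) and 3 from tumors given ADI-PEG20 alone, out of 12 libraries in all. The libraries were taken by their treatment labels. All tumors were grown from BVMA01R, a single mouse sarcoma line of the genotype Myf5-Cre;p53-/-;Ass1-/-, in female C57BL/6J mice. The Cre driver, the loss of p53 and the loss of Ass1 are therefore shared by every group. The other 6 libraries came from untreated tumors (NT, 3 libraries) and from tumors given chloroquine alone (CQ, 3 libraries). Doses, times, mouse ages and pooling of animals are not given in the sources used here. Total RNA from frozen tumors was depleted of ribosomal RNA before sequencing, so RNA of the sarcoma cells and of host cells was measured together. Such bulk RNA cannot tell fewer cells of a type apart from less RNA per cell. The comparison addressed what blocking the lysosome adds to gene expression in an arginine-deprived tumor that cannot make arginine itself.

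ADI-PEG20 is a pegylated arginine deiminase, which breaks down arginine outside cells. Cells without argininosuccinate synthase (Ass1) cannot rebuild arginine from citrulline and depend on uptake, on autophagy and on the digestion of proteins taken up from outside. Chloroquine is a weak base that gathers in lysosomes, raises their pH and blocks the last step of autophagy. A stressed lysosome can signal through the transcription factors TFEB, TFE3 and MITF, which bind the E-box letters CACGTG in promoters of lysosomal genes. Amino acid shortage acts through GCN2 and ATF4, the integrated stress response, which raises amino acid synthesis, transport and tRNA charging.

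Each library held 16188928 to 28410940 reads over 16335 genes, and the other 6 held 15501998 to 24960414. The library ADI-PEG20 1 stood apart from the other 5. It listed 120 genes at 0 reads against 7 to 40 in those 5, and 22.8% of its reads fell in the noncoding transcript Gm26917 against 5.09% to 6.89%. Its skeletal muscle markers averaged 6.78 log2 CPM (read counts scaled to a common library size) against 1.32 to 2.96, and its adipocyte markers 5.21 against 1.68 to 3.69. Each of these 6 libraries was left out in turn. Values without ADI-PEG20 1, or without another library, are given below for the lists and genes that they move most. Ass1 gave 8.97 to 17.2 CPM and Trp53 20.4 to 26.8 CPM in the 6 libraries. Host cells carry intact copies of both genes, and a value for a whole gene cannot locate the deleted stretch. The muscle lineage factors Myf5 and Myod1 gave 12.2 to 39.4 CPM and 2.77 to 24.5 CPM. The mesenchymal filament gene Vim gave 2090 to 2870 CPM and Col1a1 11100 to 42100 CPM. Sarcoma and host RNA were measured together, so these values cannot be assigned to the sarcoma alone. The pan-leukocyte gene Ptprc gave 81.2 to 157 CPM, so RNA of immune cells was present in every library.

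No gene passed an adjusted p of 0.05 in limma (percent called 0 of 16335 genes), and the smallest adjusted p was 0.894. At an unadjusted p under 0.05, limma counted 230 genes higher with chloroquine (1.41% of all genes) and 329 lower (2.01%). The total was 559 (3.42%), against 817 genes for 5% of the table. Over all genes, 51.1% were higher with chloroquine, 48.9% were lower, and the median difference was 0.01 on the log2 scale. With reads scaled by plain totals the higher share of those genes was 72.4% (381 higher and 145 lower), against 41.1% as reported. These counts moved with single libraries. They were 85 higher and 94 lower without ADI-PEG20 1, 726 and 778 without ADI-PEG20 2, and 629 and 731 without ADI-PEG20 3, while 145 and 149 genes were higher without ADI-PEG20+CQ 1 and ADI-PEG20+CQ 3. In the authors' deposited table for this comparison no gene passed either, with 159 genes higher and 235 lower at an unadjusted p under 0.05. The median standard error (SE) of a gene's difference was 0.26 log2, and the median 95% interval reached 0.57 log2 to either side. For a typical gene, smaller differences were not detectable even without adjustment. Adjustment over 16335 genes sets a higher limit, and Tmem151b, with a difference of 2.49, did not pass it. The libraries of the 2 groups did not overlap for 767 genes higher (4.70%) and 730 genes lower (4.47%). No difference below therefore counts as a call. Every gene named below had an adjusted p of 0.894 or more, so values, directions and overlaps are given as descriptions. Differences are log2 CPM with chloroquine minus without, followed by the SE from limma where it is printed.

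**Figure D1:**
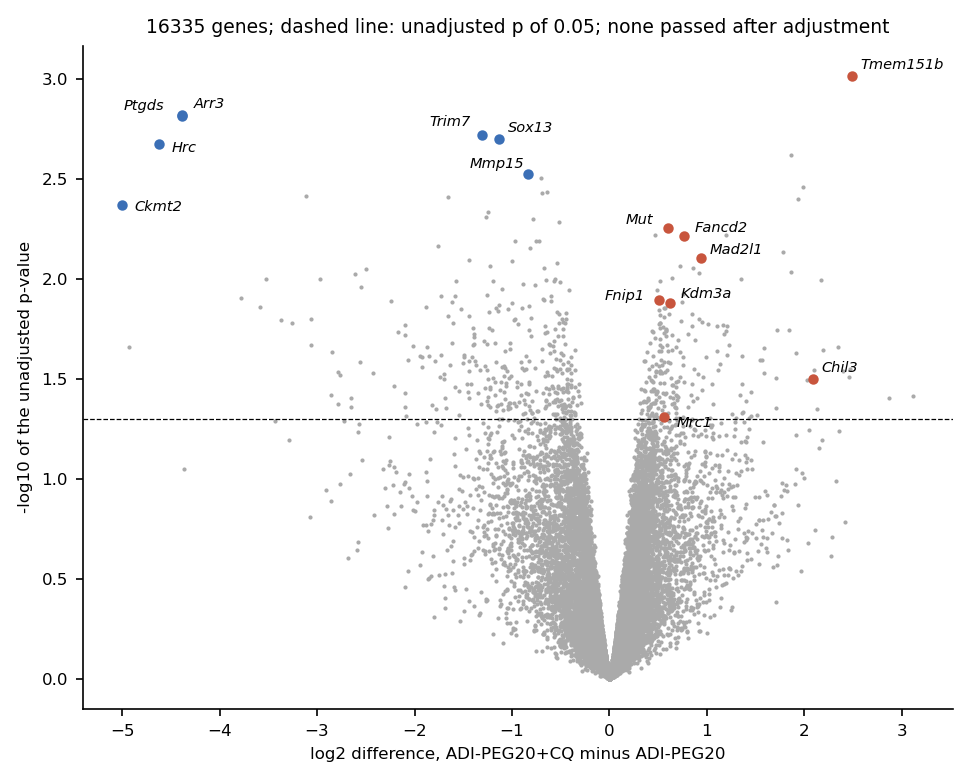
Each point is a gene, with its log2 difference (ADI-PEG20+CQ minus ADI-PEG20) on the x axis and the −log10 of its unadjusted limma p-value on the y axis; the dashed line marks an unadjusted p of 0.05. Tmem151b (2.49) is the highest point, the scarce genes Ckmt2, Hrc, Arr3 and Ptgds lie far left, and no gene passed adjustment.

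Lysosomal genes as a whole differed little when chloroquine was added. Of 41 measured lysosomal hydrolases, the enzymes that digest cargo inside the organelle, 27 were higher, with a median difference of 0.07. Among the 41, 1 gene was at an unadjusted limma p under 0.05, beside 3.42% of all genes. Of 22 lysosomal membrane proteins 13 were higher (median 0.03), and of 40 autophagy genes 19 were higher (median 0.00). The medians were 0.06, 0.05 and 0.05 without ADI-PEG20 1, and -0.04, -0.01 and -0.01 without ADI-PEG20 2, when 20, 9 and 20 genes were higher. In the KEGG lysosome set 73 of 117 genes were higher (median 0.04), beside a median of 0.01 and 51.1% higher over all genes. With plain total scaling 36 of the 41 hydrolases (median 0.24) and 34 of the 40 autophagy genes (median 0.16) were higher. Lamp1, a main glycoprotein of the lysosomal membrane, gave 587, 540 and 625 CPM with ADI-PEG20 and 596, 549 and 618 CPM with chloroquine added, a difference of 0.01 (95% interval -0.26 to 0.29). Sqstm1, the autophagy receptor p62, gave 359, 411 and 422 CPM and then 325, 478 and 500 CPM (0.11, SE 0.19). Map1lc3b, which encodes the LC3B protein of autophagosome membranes, gave 101, 80.9 and 116 CPM and then 86.6, 98.5 and 104 CPM (-0.03, SE 0.16). The groups overlapped for all 3 of these genes.

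The smallest p-values in this area belonged to regulators of lysosomal genes and to a part of the proton pump. Fnip1, a partner of folliculin in the lysosomal complex that restrains TFEB and TFE3, gave 48.1, 62.9 and 71.5 CPM with ADI-PEG20 and 75.1, 81.4 and 101 CPM with chloroquine added. Every library with chloroquine was above every library without (0.50, SE 0.18), and the difference was 0.34 without ADI-PEG20 1. Mitf gave 14.3, 11.0 and 19 CPM and then 22.7, 21.8 and 18.6 CPM (0.54, SE 0.22, and 0.35 without ADI-PEG20 2), with 1 library in each group overlapping. Tfeb went the other way. Its libraries gave 28.0, 22.4 and 22.9 CPM with ADI-PEG20 and 21.0, 14.5 and 17.7 CPM with chloroquine added, with no overlap (-0.47, SE 0.22). Among the subunits of the vacuolar proton pump, which acidifies the lysosome, 14 of 19 were higher (median 0.17) and 16 of 19 without ADI-PEG20 1 (median 0.10). Atp6v1c1, a stalk subunit of the pump, gave 34.6, 54.8 and 41.8 CPM and then 60.7, 57.3 and 57.3 CPM (0.44, SE 0.17, and 0.29 without ADI-PEG20 1), again without overlap. The acid ceramidase Asah1 was the hydrolase with the smallest p (0.44, SE 0.20). Its groups overlapped, and its difference was 0.19 without ADI-PEG20 1. Glb1, the lysosomal beta-galactosidase, gave 30.7, 25.4 and 30.4 CPM and then 34.8, 33.4 and 36.2 CPM (0.28, SE 0.15), and the difference was 0.32 without ADI-PEG20 1. Gabarapl1, an LC3 relative, was higher without overlap, at 42.4, 30.9 and 38.4 CPM and then 45.4, 44.3 and 46.3 CPM (0.30, SE 0.16, and 0.17 without ADI-PEG20 2).

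Fnip1 and Glb1, both higher without overlap, are shown because their RefSeq promoters (GRCm38.p6) hold the CACGTG letters that TFEB and MITF read. The 150 bases before the transcript start are shown for each in lower case, 5′ to 3′ on the gene's strand, with CACGTG in capitals. The letters begin 75 bases before the start of Fnip1 (chr11:54438029-54438178, plus strand) and 48 bases before the start of Glb1 (chr9:114400928-114401077, plus strand).
Fnip1: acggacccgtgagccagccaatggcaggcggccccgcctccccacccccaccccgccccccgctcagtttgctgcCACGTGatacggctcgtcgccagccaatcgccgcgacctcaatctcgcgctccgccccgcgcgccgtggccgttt
Glb1: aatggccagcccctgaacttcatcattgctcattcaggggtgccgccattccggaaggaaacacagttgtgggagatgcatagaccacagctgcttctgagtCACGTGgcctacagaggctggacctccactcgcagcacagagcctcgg
CACGTG reads the same on both strands. It was in 4.3% of all 32851 RefSeq windows of this length, in 9 of 37 windows of the hydrolases, in 5 of 22 of the membrane proteins and in 2 of 19 of the proton pump subunits. A match is a description of the letters and not of binding.

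**Figure D2:**
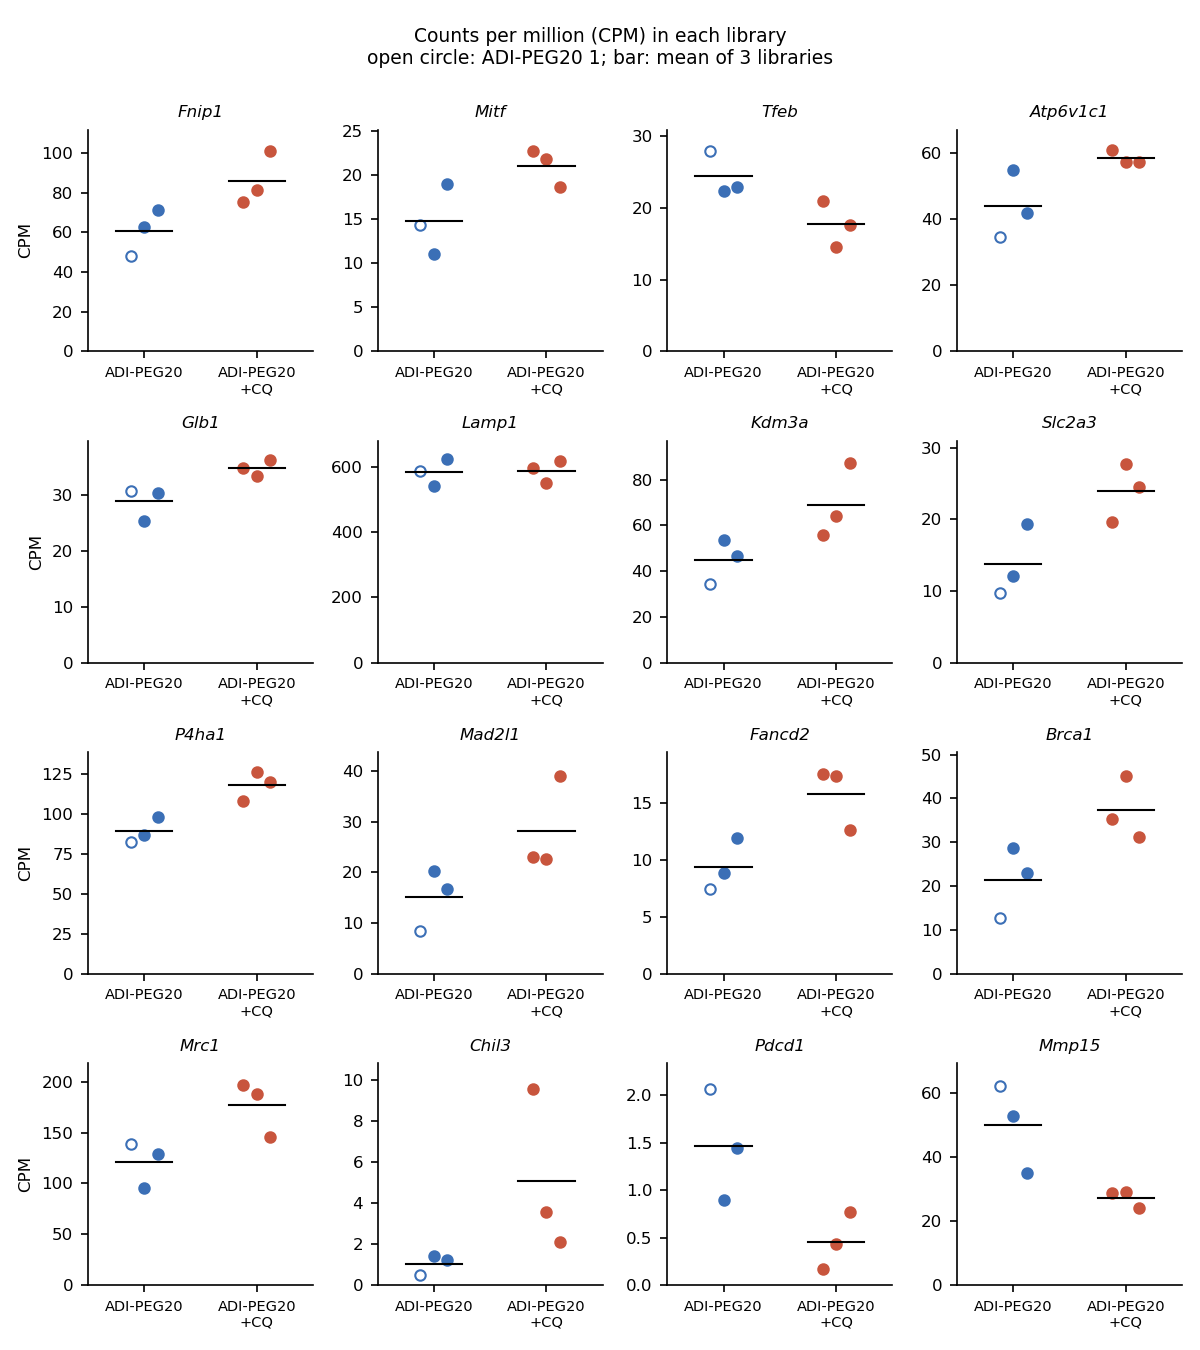
CPM (y axis, from 0) of 16 genes in each of the 3 ADI-PEG20 libraries (blue) and 3 ADI-PEG20+CQ libraries (red); bars are means of 3 libraries and the open circle is ADI-PEG20 1. Fnip1, Atp6v1c1, Glb1, Kdm3a, Slc2a3, P4ha1, Mad2l1, Fancd2, Brca1, Mrc1 and Chil3 have no overlap and are higher with chloroquine. Tfeb, Pdcd1 and Mmp15 have no overlap and are lower, Mitf overlaps, and Lamp1 is level.

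Most lists of genes that answer amino acid shortage stood slightly higher with chloroquine. Of 23 integrated stress response targets 17 were higher (median 0.22), and 19 were without ADI-PEG20 1 (median 0.16). Without ADI-PEG20+CQ 2 the count was 14 of 23 and the median 0.11, and without ADI-PEG20+CQ 3 the median was 0.14. The mean of the list was 5.11, 5.08 and 5.13 log2 CPM with ADI-PEG20 and 4.99, 5.46 and 5.4 log2 CPM with chloroquine added. ADI-PEG20+CQ 1 was thus below every library with ADI-PEG20 alone. None of the 23 genes reached an unadjusted limma p under 0.05. Atf4, the transcription factor of this response, gave 204, 231 and 237 CPM with ADI-PEG20 and 243, 310 and 245 CPM with chloroquine added, a narrow separation with no overlap (0.24, SE 0.15, and 0.13 without ADI-PEG20+CQ 2). Asns, which makes asparagine, gave 50.6, 92.5 and 117 CPM and then 91.3, 158 and 113 CPM (0.53, SE 0.27), and its difference was 0.18 without ADI-PEG20 1 and 0.31 without ADI-PEG20+CQ 2. Of 16 genes of serine, one-carbon and proline synthesis 12 were higher (median 0.23, or 0.15 without ADI-PEG20 1 and 0.13 without ADI-PEG20+CQ 2). Mthfd2, the mitochondrial one-carbon enzyme, gave 63.5, 82.7 and 65.4 CPM and then 79.8, 109 and 103 CPM (0.46, SE 0.21), with overlap. Aldh18a1, which makes the precursor of proline, was higher without overlap at 129, 132 and 138 CPM and then 143, 160 and 179 CPM (0.26, SE 0.13). Cytosolic aminoacyl-tRNA synthetases, which charge tRNAs with amino acids, were higher in 18 of 20 (median 0.19), but the median was 0.06 without ADI-PEG20 1 and 0.12 without ADI-PEG20+CQ 2. Nars, the asparagine enzyme, gave 180, 237 and 235 CPM and then 235, 316 and 284 CPM (0.36, SE 0.16, and 0.23 without ADI-PEG20 1), where the lowest library with chloroquine lay inside the range without. Cationic amino acid transporters, which carry arginine, were higher in 7 of 9 (median 0.14, or 0.03 without ADI-PEG20+CQ 2 and 0.05 without ADI-PEG20+CQ 3). Slc7a3, an arginine and lysine carrier, overlapped widely, at 18.9, 45.5 and 33.0 CPM and then 18.6, 53.6 and 44.0 CPM (0.21, SE 0.47). Neutral amino acid and cystine transporters were level, with 8 of 16 higher (median -0.01). Slc38a4, the member of that list with the smallest p, was lower (-1.04). Ass1 differed by 0.02 (SE 0.30). Arginine and urea cycle enzymes were higher in 5 of 9 (median 0.02). The nitric oxide synthase Nos1, with the smallest p of that list, was lower (-1.73, and -1.01 without ADI-PEG20+CQ 1). Its group means were 6.76 CPM (standard deviation 1.75) and then 2.67 CPM (standard deviation 2.34), with overlap. Arg1, which splits arginine to ornithine and is also a macrophage gene, was higher without overlap. It gave 3.89, 3.87 and 2.31 CPM and then 6.85, 6.29 and 5.46 CPM (0.91, SE 0.77).

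The Asns promoter is shown because it holds the composite letters that ATF4 and C/EBP proteins read at amino acid response elements. TGATGNAA, with N any base, was searched on both strands and starts 23 bases before the RefSeq start of Asns (chr6:7693210-7693359, minus strand), in capitals.
Asns: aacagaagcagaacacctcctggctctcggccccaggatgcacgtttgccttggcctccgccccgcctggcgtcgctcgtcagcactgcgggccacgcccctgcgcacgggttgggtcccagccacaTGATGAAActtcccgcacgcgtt
These letters were in 2.23% of all windows and in 5 of 26 windows of the stress response list.

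Hypoxia genes stood higher with chloroquine in most members. The list of 19 hypoxia response genes, which includes Hif1a itself, had 16 higher and a median difference of 0.30. Groups did not overlap for 3 of the 19, all higher, beside 4.7% of all genes higher without overlap. Without ADI-PEG20 1, 16 of 19 were again higher and the median was 0.28. The median was 0.15 with 14 of 19 higher without ADI-PEG20+CQ 3, and 0.47 with 18 of 19 higher without ADI-PEG20+CQ 1. The mean of the list was 5.22, 5.26 and 5.46 log2 CPM with ADI-PEG20 and 5.40, 5.65 and 5.94 log2 CPM with chloroquine added, so that the lowest library with chloroquine lay below the highest library without. Kdm3a, a histone demethylase induced in low oxygen, gave 34.2, 53.4 and 46.8 CPM and then 55.8, 64.1 and 87.2 CPM (0.62, SE 0.22). Slc2a3, the high-affinity glucose carrier GLUT3, gave 9.69, 12.1 and 19.4 CPM and then 19.6, 27.8 and 24.6 CPM (0.85, SE 0.36). P4ha1, a collagen prolyl hydroxylase, gave 82.0, 86.8 and 97.8 CPM and then 108, 126 and 120 CPM (0.41, SE 0.19). None of these 3 genes overlapped between groups, and the differences without ADI-PEG20 1 were 0.44, 0.63 and 0.35. Ndrg1, a stress gene on this list and the stress response list, was high in 1 library with chloroquine, at 154, 176 and 143 CPM and then 170, 186 and 307 CPM (0.44, SE 0.23, and 0.18 without that library). Glycolysis genes were higher in 15 of 18 (median 0.19, or 0.10 without ADI-PEG20 1), and for none of them did the groups separate or the unadjusted p fall under 0.05. Hk2, the hexokinase that traps glucose in the cell, was high in the same library as Ndrg1, ADI-PEG20+CQ 3, at 168 CPM against 72.2 to 100 CPM in the other 5 (0.42, and 0.14 without that library).

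P4ha1 had the smallest interaction p of the hypoxia list, and its promoter is shown for the core letters ACGTG of a hypoxia response element. They lie on the opposite strand, as CACGT in capitals, and begin 16 bases before the RefSeq start (chr10:59323146-59323295, plus strand).
P4ha1: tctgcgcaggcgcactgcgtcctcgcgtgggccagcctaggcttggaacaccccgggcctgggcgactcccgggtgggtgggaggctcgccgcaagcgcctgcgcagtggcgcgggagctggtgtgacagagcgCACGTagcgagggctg
ACGTG is contained in CACGTG, was searched on both strands, and was in 11.2% of all windows and in 9 of 22 windows of the hypoxia list.

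Cell cycle genes stood higher with chloroquine, and ADI-PEG20 1 was the lowest library for them. Of 20 genes of the G1 to S step 16 were higher (median 0.28), and of 22 genes of G2 and mitosis 21 were higher (median 0.24). Without ADI-PEG20 1 the counts were 18 and 17 and the medians 0.14 and 0.12. Without ADI-PEG20+CQ 1, the highest library for both lists, they were 16 and 17 and the medians 0.16 and 0.09. The list means in ADI-PEG20 1 were 4.88 and 4.59 log2 CPM. Mad2l1, the spindle checkpoint protein MAD2, gave 8.42, 20.2 and 16.8 CPM and then 23, 22.7 and 39.0 CPM (0.94, SE 0.30, and 0.57 without ADI-PEG20 1). Aurka, a mitotic kinase, gave 18.2, 26.4 and 22.9 CPM and then 29.6, 30 and 28.0 CPM (0.39, SE 0.17, and 0.25 without ADI-PEG20 1). DNA repair genes were among those with the smallest p. Fancd2, of the Fanconi anemia pathway, gave 7.39, 8.86 and 11.9 CPM and then 17.5, 17.3 and 12.6 CPM (0.76, SE 0.24). Brca1 gave 12.7, 28.6 and 23 CPM and then 35.4, 45.2 and 31.2 CPM (0.86, SE 0.28, and 0.52 without ADI-PEG20 1). Groups did not overlap for any of these 4 genes. Faap20, another Fanconi anemia gene, was lower without overlap, at 16.1, 11.7 and 10.5 CPM and then 8.04, 7.45 and 7.82 CPM (-0.69, SE 0.20), so genes of that pathway did not all stand on the same side.

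Macrophage markers stood higher, and markers of antigen presentation and T cells lower, with chloroquine. Of 24 macrophage and monocyte markers 23 were higher (median 0.22), beside 51.1% of all genes. Groups did not overlap for 4 of the 24, all higher, beside 4.7% of all genes higher without overlap. Without ADI-PEG20 1, 22 were higher (median 0.20). The counts were lower without other libraries, at 15 of 24 without ADI-PEG20+CQ 1 (median 0.21), 17 of 24 without ADI-PEG20 2 (median 0.13) and 18 of 24 without ADI-PEG20+CQ 3 (median 0.14). Without ADI-PEG20+CQ 2 the median was 0.38. Mrc1, the mannose receptor CD206, gave 139, 95.1 and 129 CPM with ADI-PEG20 and 197, 188 and 146 CPM with chloroquine added (0.56, SE 0.26). Chil3, a chitinase-like protein of alternatively activated macrophages, gave 6, 45 and 28 reads and then 224, 83 and 46 reads, a ratio of 4.35 (95% interval 3.40 to 5.62 for counting error only). Itgam, the integrin CD11b, gave 57.8, 59.6 and 67.5 CPM and then 80.2, 71.7 and 80.8 CPM (0.33, SE 0.16). Msr1, the scavenger receptor A, gave 16.1, 31.2 and 24.6 CPM and then 37.4, 39.5 and 30 CPM (0.61, SE 0.29, and 0.35 without ADI-PEG20 1), with 1 library without chloroquine inside the range of the treated group. Among chemokines, Ccl9 was higher without overlap (0.44, SE 0.24, and 0.27 without ADI-PEG20+CQ 1), and Csf1, the macrophage growth factor, differed by 0.04 (SE 0.16).

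Class II antigen presentation genes were lower in 9 of 10 (median -0.42, or -0.50 without ADI-PEG20 1), with 0 at an unadjusted p under 0.05. The median was -0.19 without ADI-PEG20+CQ 2 and -0.81 without ADI-PEG20+CQ 3. The mean of the list was 5.68, 5.72 and 5.93 log2 CPM with ADI-PEG20 and 5.19, 4.85 and 6.09 log2 CPM with chloroquine added. The highest and the lowest values of the 6 were thus both in the group with chloroquine. Ciita, the master regulator of class II genes, followed the same order, at 31.3, 33.0 and 30.6 CPM and then 14.5, 13.4 and 34.7 CPM (-0.74, SE 0.46, and -1.18 without ADI-PEG20+CQ 3). Cd74, the invariant chain, gave 515, 669 and 728 CPM and then 335, 287 and 826 CPM (-0.55, SE 0.56, with -0.26 without ADI-PEG20+CQ 2 and -1.02 without ADI-PEG20+CQ 3). T cell markers were lower in 18 of 19 (median -0.43, the same without ADI-PEG20 1), and ADI-PEG20+CQ 2 had the lowest mean at -0.01 log2 CPM against 0.77 to 1.11 in the other 5. Without that library 9 of the 19 markers were higher and the median was -0.31. Pdcd1, the checkpoint receptor PD-1, gave 26, 28 and 33 reads and then 4, 10 and 17 reads, without overlap (ratio 0.35, counting interval 0.22 to 0.53). Dendritic cell markers were lower in 8 of 10 (median -0.19), but without ADI-PEG20+CQ 2 the median was 0.01 with 5 of 10 higher, and without ADI-PEG20+CQ 1 or ADI-PEG20+CQ 3 it was -0.42 or -0.40. Type I interferon genes were higher in 8 of 29 (median -0.05) and interferon gamma genes in 3 of 16 (median -0.14), and these 2 medians were 0.12 and 0.03 when reads were scaled by plain totals. Both directions rested on ADI-PEG20+CQ 2, without which 27 of 29 (median 0.31) and 13 of 16 (median 0.18) were higher. Type I interferon genes were also higher in 23 of 29 with library quality weights (median 0.09), in 17 of 29 without ADI-PEG20 1 and in 15 of 29 without ADI-PEG20 2 (medians 0.02), and the interferon gamma median was 0.02 without ADI-PEG20 3. With plain total scaling the median of all genes was 0.175 log2, against 0.009 as reported.

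**Figure D3:**
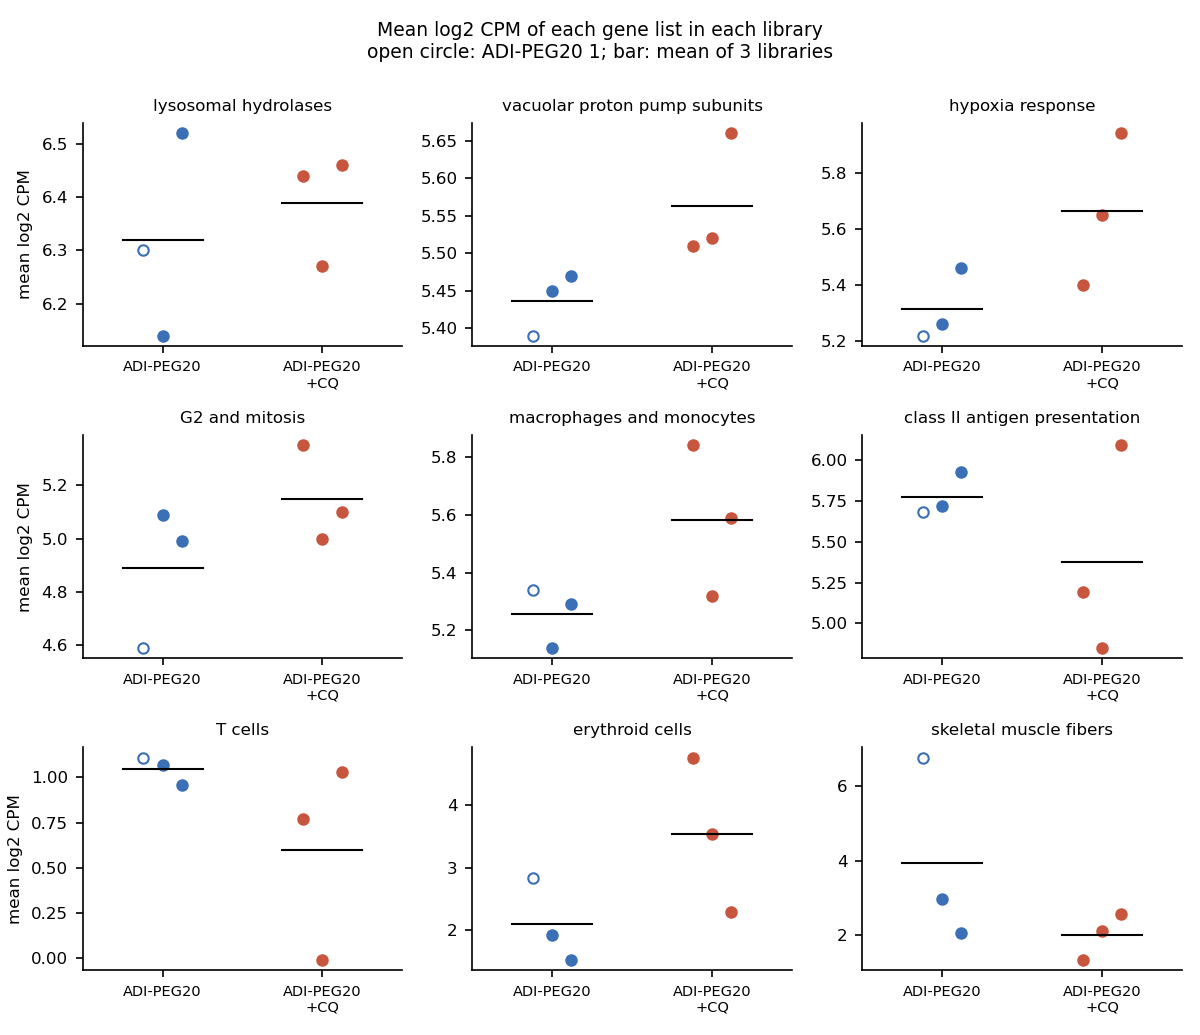
Mean log2 CPM (y axes differ and do not start at 0) of 9 gene lists in each of the 6 libraries, with the bar at the mean of 3 libraries and the open circle for ADI-PEG20 1. Hypoxia and macrophage lists lie mostly higher with chloroquine, class II and T cell lists spread widely among the 3 libraries with chloroquine, and the open circle is the highest skeletal muscle value, at 6.78.

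Blood and muscle markers had the largest list medians of the 61 lists, and both moved with single libraries. Of 7 erythroid markers all were higher (median 1.71). The median was 0.83 without ADI-PEG20+CQ 1, 1.20 without ADI-PEG20 2 and 2.16 without ADI-PEG20 1, and all 7 were higher in each of these cases. Hbb-bt, a beta-globin gene, gave 3.49, 1.12 and 1.18 CPM and then 18.6, 7.02 and 2.46 CPM, with overlap (2.03, SE 0.85, and 1.31 without ADI-PEG20+CQ 1). Near-identical globin copies can share reads, so single globin values are uncertain. Alas2, the erythroid heme synthesis enzyme, gave 7.15, 8.41 and 6.27 CPM and then 15.7, 11.8 and 7.64 CPM (0.63, SE 0.31, and 0.39 without ADI-PEG20+CQ 1). ADI-PEG20+CQ 1 was the highest for both genes. Skeletal muscle markers were lower in 26 of 27 (median -1.79), but without ADI-PEG20 1 the median was -0.38 with 21 of 27 lower, and without ADI-PEG20 3 it was -2.81. Myogenic regulators were lower in 8 of 10 with and without ADI-PEG20 1, with medians of -1.64 and -1.02. Myh8, the perinatal myosin, gave 18.8, 7.42 and 3.57 CPM and then 0.342, 1.11 and 6.05 CPM (-2.55, SE 0.86, and -1.60 without ADI-PEG20+CQ 1). Adipocyte, fibroblast and collagen medians were -0.30, -0.13 and -0.26 with ADI-PEG20 1 and 0.23, 0.39 and 0.06 without it, and the fibroblast median was also positive with plain total scaling (0.04) and without ADI-PEG20+CQ 2 (0.22). Without ADI-PEG20 2 these 3 medians were -1.47, -0.37 and -0.53. Cholesterol synthesis (0.14 and -0.14) and the NRF2 redox genes (0.09 and -0.07) likewise had opposite signs with and without ADI-PEG20 1.

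**Figure D4:**
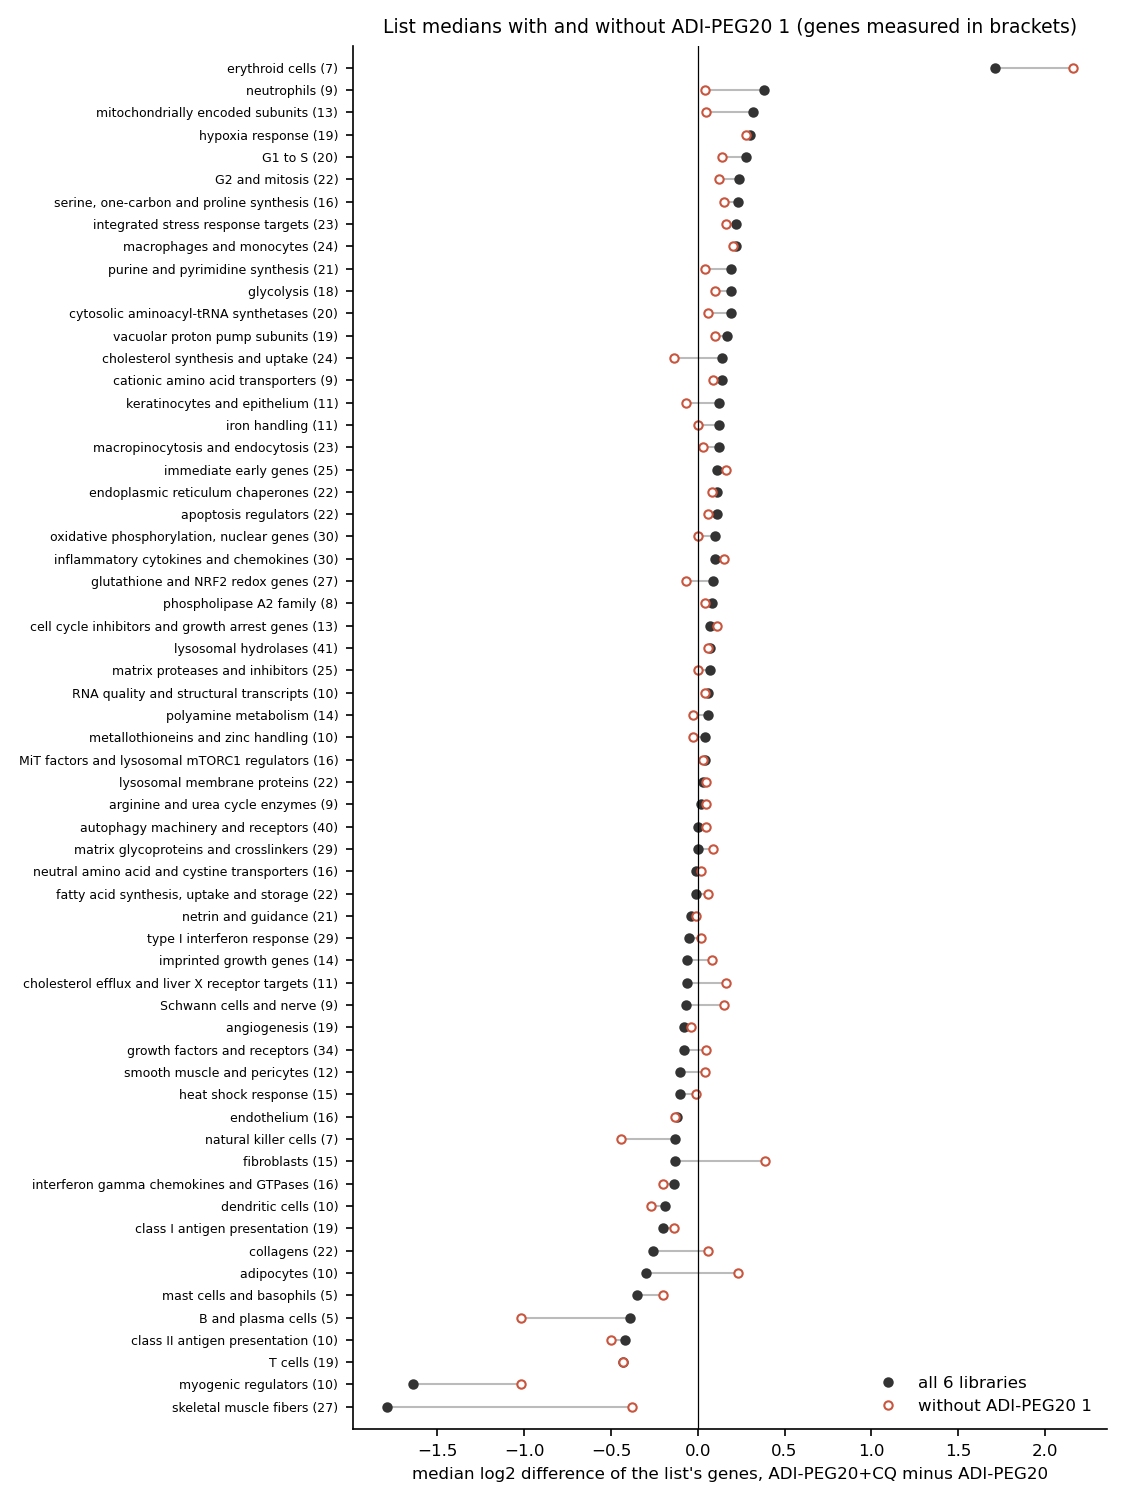
Median log2 difference (x axis, ADI-PEG20+CQ minus ADI-PEG20) of 61 gene lists, with filled points for all 6 libraries, open points without ADI-PEG20 1, and the number of measured genes in brackets. The hypoxia (0.30 and 0.28), macrophage (0.22 and 0.20) and T cell (-0.43 and -0.43) points nearly coincide with and without this library, while the skeletal muscle points (-1.79 and -0.38) lie far apart.

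Genes ranking first by p on the higher side, beside those above, included genes of the surface, metabolism and chromatin. Tmem151b, a transmembrane protein gene, had the smallest p of all genes, and gave 5, 9 and 5 reads with ADI-PEG20 and 62, 50 and 21 reads with chloroquine added (ratio 6.81, counting interval 4.19 to 11.7). Its groups did not overlap, and its difference on the log2 scale was 2.49 with and 2.72 without ADI-PEG20 1. Mut, the mitochondrial methylmalonyl-CoA mutase, gave 14.3, 15.3 and 18.7 CPM and then 23.5, 23.2 and 26.0 CPM (0.60, SE 0.18). Vcam1, an adhesion molecule for leukocytes, gave 58.1, 115 and 99.8 CPM and then 146, 159 and 130 CPM (0.72, SE 0.24, and 0.43 without ADI-PEG20 1). Il23r, a cytokine receptor, gave 26 reads in all with ADI-PEG20 and 93 with chloroquine added (ratio 3.48, counting interval 2.23 to 5.60). Hist1h4f, a replication histone H4 gene with near-identical copies, gave 70.1, 79.9 and 71.6 CPM and then 104, 102 and 101 CPM (0.47, SE 0.14). Efemp1, a fibulin of the matrix, was higher by 0.65 (SE 0.22, and 0.42 without ADI-PEG20 1) and Depdc1b by 0.92 (SE 0.30), both without overlap. AU041133 (1.35, SE 0.45) and the small RNA gene Scarna3a (25 and then 84 reads) completed the 12 genes.

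Among the genes lower with chloroquine were the matrix protease Mmp15 and the transcription factor Sox13. Mmp15, a membrane-anchored metalloproteinase, gave 62.2, 52.8 and 34.9 CPM with ADI-PEG20 and 28.7, 29.0 and 24.1 CPM with chloroquine added (-0.84, SE 0.23). Sox13 gave 25.9, 12.7 and 11.7 CPM and then 6.46, 7.11 and 8 CPM (-1.13, SE 0.29). Neither overlapped between groups, and the differences were -0.66 and -0.76 without ADI-PEG20 1. Lrrc47 gave 97.2, 65.5 and 55.7 CPM and then 42.1, 40.0 and 48.4 CPM (-0.71, SE 0.20). Pik3c2b, a class II phosphoinositide 3-kinase, gave 33.5, 28.6 and 24.5 CPM and then 16.7, 19 and 19.6 CPM (-0.64, SE 0.18). Trim7, a ubiquitin ligase linked to glycogenin, differed by -1.31 (SE 0.34) and Zfp575 by -1.65 (SE 0.47), without overlap.

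Large negative differences were found in scarce genes, where reads say more than a fitted fold. Ptgds, the lipocalin-type prostaglandin D synthase, gave 18, 10 and 13 reads and then 0, 1 and 0 reads, a ratio of 0.024 with a counting interval from 0.00059 to 0.14. Arr3, cone arrestin, gave 24, 32 and 16 reads and then 7, 0 and 0 reads (ratio 0.095, interval 0.037 to 0.21). Neither passed adjustment, and for both each of the 3 libraries with ADI-PEG20 alone gave more reads than any library with chloroquine. The muscle genes Hrc (109 and then 6 reads) and Ckmt2 (73 and then 1 read) were also among them. For these muscle genes the level of the skeletal muscle list moved alongside, from 2.04 to 6.78 log2 CPM with ADI-PEG20 and from 1.32 to 2.56 with chloroquine added, and its part in the result was not tested. The counting strand is not given in the sources used here, so reads of Mut, Scarna3a, Lrrc47, Trim7, Zfp575, Ndrg1, Hk2, Glb1, Ciita, Alas2, Lamp1, Sqstm1, Map1lc3b, Ampd3, Mest and Exosc5 cannot be told apart from reads of a measured gene that overlaps each of them.

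A sweep over 219 KEGG sets of 15 to 300 measured genes gave medians from -0.22 to 0.23. The highest were pantothenate and CoA biosynthesis (0.23), glycine, serine and threonine metabolism (0.20), DNA replication (0.20, with 30 of 35 genes higher), steroid biosynthesis (0.19), 2-oxocarboxylic acid metabolism (0.18), protein export (0.18), mismatch repair (0.18) and biosynthesis of amino acids (0.16). Without ADI-PEG20 1 these 8 medians were 0.08, -0.01, 0.06, -0.13, 0.10, 0.08, 0.02 and 0.06. The lowest was the intestinal immune network for IgA production, a set that holds class II genes, at -0.22 with 6 of 28 higher, and -0.18 with 7 of 28 higher without that library. Regulation of lipolysis in adipocytes (-0.19), protein digestion and absorption (-0.17), calcium signaling (-0.17), glycosaminoglycan biosynthesis of the chondroitin and dermatan sulfate type (-0.15), carbohydrate digestion and absorption (-0.14), salivary secretion (-0.14) and melanogenesis (-0.14) followed. The medians of these 7 sets were -0.05 to 0.02 without ADI-PEG20 1.

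Whether chloroquine acts differently in arginine-deprived tumors was asked with the interaction, the effect of chloroquine with ADI-PEG20 minus its effect without. No gene passed an adjusted p of 0.05 in limma (smallest 0.825), and 696 genes (4.26%) were at an unadjusted p under 0.05. Across genes, the effects of chloroquine added to ADI-PEG20 and of chloroquine alone, which share no library, had a Pearson r of -0.041 and a Spearman rho of -0.126 over 16335 genes, which are not independent of each other. Most of the 61 lists had medians of opposite sign in these 2 comparisons, so this was not particular to the lists named here. Lists with the same sign included integrated stress response targets (0.22 added to ADI-PEG20 and 0.16 alone), macrophage and monocyte markers (0.22 and 0.11) and G2 and mitosis (0.24 and 0.04). Hypoxia genes had a median of 0.30 when chloroquine was added to ADI-PEG20 (16 of 19 higher) and -0.43 when it was given alone (2 of 19 higher). Glycolysis stood at 0.19 and -0.34. Class II genes had -0.42 and 0.66, T cell markers -0.43 and 0.80, and myogenic regulators -1.64 and 1.44. All 29 type I interferon genes were higher with chloroquine alone (median 0.63), against 8 of 29 when it was added to ADI-PEG20, a count that was 27 of 29 (median 0.31) without ADI-PEG20+CQ 2 and 23 of 29 with library quality weights. With chloroquine alone, the library means of each list named here overlapped between groups. Class II means were 4.1, 4.01 and 5.03 log2 CPM untreated and 4.38, 4.49 and 5.9 log2 CPM with chloroquine alone. T cell means were -0.53, -0.05 and 0.46 and then 0.44, 0.11 and 1.71. In NT 2, 16.4% of reads fell in Gm26917, against 8.17% and 8.37% in NT 1 and NT 3. NT and CQ libraries were not left out in turn. These lists were not tested for a difference.

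**Figure D5:**
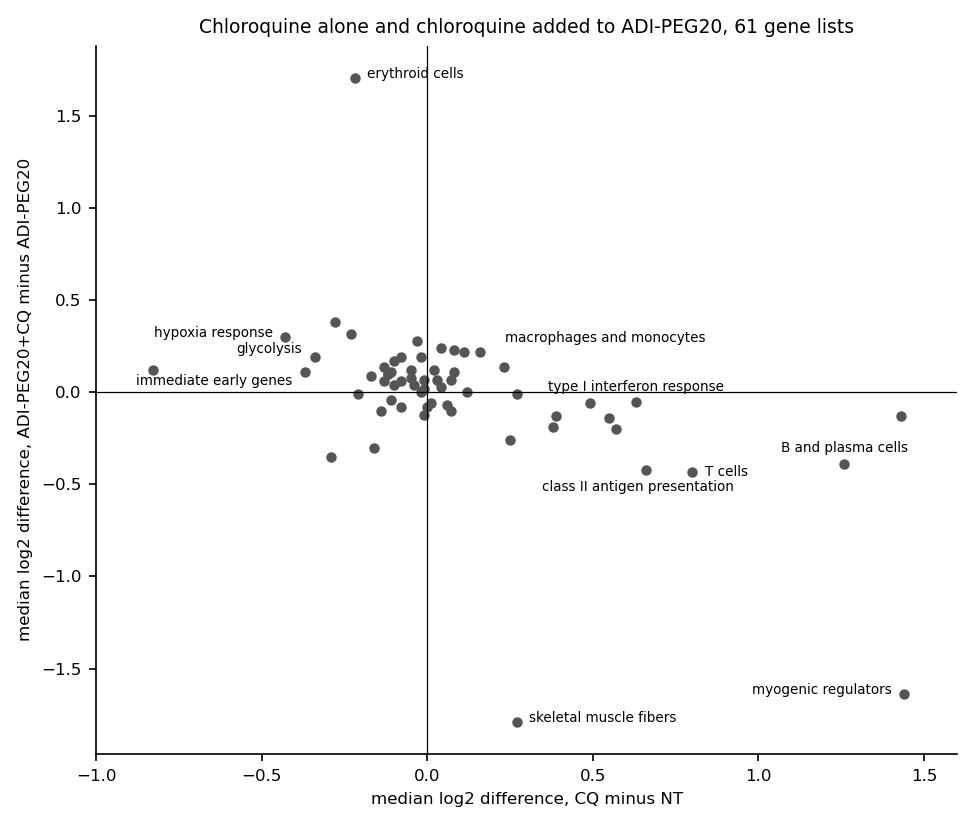
Median log2 difference of 61 gene lists for chloroquine alone (x axis, CQ minus NT) and for chloroquine added to ADI-PEG20 (y axis, ADI-PEG20+CQ minus ADI-PEG20), each over 3 against 3 libraries. Hypoxia (-0.43 and 0.30) lies upper left, and class II (0.66 and -0.42), T cell and myogenic lists lie lower right.

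Single genes with opposite signs in these comparisons included P4ha1 and Mmp15. P4ha1 gave 197, 134 and 116 CPM in untreated tumors and 98.0, 119 and 82.4 CPM with chloroquine alone (-0.56, SE 0.19), against 0.41 when chloroquine was added to ADI-PEG20, an interaction of 0.97 (SE 0.27). Mmp15 gave 57.7, 88.0 and 74.1 CPM untreated and 108, 85.6 and 69.7 CPM with chloroquine alone (0.26), against -0.84 on top of ADI-PEG20 (interaction -1.09, SE 0.33). Tfeb differed by 0.42 with chloroquine alone and -0.47 on top of ADI-PEG20, and Fnip1 by -0.20 and 0.50. Beside P4ha1, the 5 genes with the smallest positive interaction p included Ampd3, Apob, Mmp10 and AW549877. Ampd3, an AMP deaminase, was lower with chloroquine alone (-0.81) and 0.18 higher on top of ADI-PEG20. Apob gave -1.65 and 0.93, Mmp10, a matrix protease, -2.87 and 0.31, and AW549877 gave -0.33 and 0.51. Of the 5 on the negative side, the imprinted gene Mest gave 1.10 and -0.24, the ATP-gated channel P2rx5 1.19 and -0.61, Zfp61 0.97 and -0.56, the secreted kinase Pkdcc 0.39 and -0.75, and the exosome subunit Exosc5 0.34 and -0.78. These 9 genes were chosen by their interaction p, and the interaction is 1 of the 2 differences minus the other. That choice favors opposite signs, so the signs are not a separate result. The 2 differences had opposite signs for all 9, except that Mmp10 on top of ADI-PEG20 was -0.24 without ADI-PEG20 1 and also without ADI-PEG20+CQ 2. On top of ADI-PEG20, AW549877 was 0.30, Mest -0.08, P2rx5 -0.38 and Pkdcc -0.48 without ADI-PEG20 1, and Ampd3 was 0.08 and Apob 1.45 without ADI-PEG20 2. The adjusted interaction p in limma was 0.825 or more for every gene.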

How the data were processed

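The authors deposited a merged table with 1 value per gene and library on the log2 scale, log2 CPM with 0.5 read added and scaled by an effective library size, as its lowest values show. Of its 16386 lines, 51 repeated an identifier, and the first line of each was kept, leaving 16335 genes. Each of the 6 libraries held 16188928 to 28410940 reads. Reads were recovered from these values, and 100% of values under 2000 reads came within 0.02 of a whole number. The same table holds the authors' log2 fold changes and p-values for this comparison, per the file headers. The submitters' processing notes list mm10 as build and, as tools, limma, edgeR, Salmon 0.8.2, featureCounts 1.4.6-p5 and STAR 2.5.1a, with no roles.

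For this comparison a linear model was fitted to those values (limma 3.58.1, R 4.3.3). It took in the 12 libraries of all 4 groups together, and used a variance trend in expression, two-sided tests and Benjamini-Hochberg adjustment over 16335 genes, threshold 0.05. Intervals of read ratios come from exact binomial intervals (95%) of summed reads scaled by effective library size, and cover counting error only. Whether libraries came from different animals is not stated in the labels, so p-values reflect only how these samples spread, which may be technical. The members and 61 gene lists (45 programs, 16 cell types, 1064 of 1138 genes measured) were chosen with earlier results of these data known, and lists were described without a test. Named genes were the 12 with the smallest p in each direction (predicted gene models left out), up to 4 members per list, 10 fixed genes and the 5 with the smallest interaction p in each direction. Not every gene the rule takes is printed, and some results are not reported here. KEGG memberships (and set sizes, not used further) came from a set table the authors deposited, whose test values were not used. Promoters are RefSeq sequences of GRCm38.p6. Alternatives were other scalings, weights, filters, the replicate block and leaving out each library of the compared groups.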

Additional observations from a re-analysis of the deposited data

How the results depend on the processing

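No gene passed an adjusted p of 0.05 in limma in any of 18 settings for this comparison, or for the interaction in those that include all 4 groups, and the lowest adjusted p was 0.539, without ADI-PEG20 2. Of genes at an unadjusted p under 0.05, plain total scaling gave 381 higher and 145 lower (72.4% higher, against 41.1% as reported), and library quality weights gave 219 lower. Leaving out each library in turn gave 85 to 726 higher and 94 to 778 lower. The fewest were without ADI-PEG20 1 and the most without ADI-PEG20 2. With the replicate block the counts were 250 and 372. Deviations from the group mean were correlated across genes between the 2 groups. Samples of the same number had correlations of 0.118, 0.167 and -0.05. Against the other numbers they were -0.175 and 0.072, -0.127 and -0.053, and -0.04 and 0.081. With 3 samples a group these values cannot decide whether the numbers pair the samples, and the block is given here only. Among named genes, Slc7a3 was -0.03 with library quality weights, -0.05 with voom and library quality weights (chosen after seeing the data). Mmp10 was -0.19 and -0.20 with those 2 weightings. Lamp1 was 0 with median centring and Map1lc3b 0.14 with plain totals. Leaving out each library in turn gave -0.14 to 0.67 for Slc7a3, -0.24 to 0.77 for Mmp10, -0.04 to 0.06 for Lamp1, -0.17 to 0.09 for Map1lc3b, -0.21 to 0.22 for Ass1, -0.07 to 0.12 for Csf1 and -0.01 to 0.30 for Sqstm1. The cause of these changes was not tested. With 3 libraries a group, the median 95% interval of a gene reached 0.57 log2 to either side.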

Other observations

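Replication-dependent histone genes stood higher with chloroquine, a group chosen after its values were seen. Of 58 measured genes whose symbol begins with Hist, 56 were higher with chloroquine added to ADI-PEG20 (median 0.36), and the groups did not overlap for 28 of them, all higher. Over all genes 4.7% were higher without overlap. At an unadjusted limma p under 0.05 there were 13 higher and 0 lower, beside 1.41% and 2.01% of all genes, and none passed adjustment. Their mean was 4.15, 4.45 and 4.42 log2 CPM with ADI-PEG20 and 4.74, 4.71 and 4.59 log2 CPM with chloroquine added, so the groups were apart. Without ADI-PEG20 1, 52 of 58 were higher and the median was 0.24. With chloroquine alone the median was -0.06, and untreated libraries ranged from 4.19 to 4.75 log2 CPM. Many of these genes are near-identical copies that can share reads, and most of their transcripts lack a poly(A) tail, which ribosomal depletion keeps. The G1 to S and G2 lists were also higher in these libraries, and their part in this was not tested.

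Ribosome genes of the KEGG set were higher in 110 of 131 (median 0.16), and in 89 of 131 without ADI-PEG20 1 (median 0.05). The 13 mitochondrially encoded subunits of the respiratory chain had a median of 0.32 with 12 higher, and 0.05 with 10 higher without that library. Neutrophil markers had medians of 0.38 and 0.04 in the same order. Without ADI-PEG20+CQ 3 the neutrophil median was -0.04.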
